A study of Mus musculus with 19 samples.

Results

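Rorb, Rora, Scnn1a and Rspo1 are 4 genes known as markers of layer 4 neurons of the neocortex, taken here by name out of 24130 Ensembl genes listed in at least 1 of 7 RNA-seq libraries of mouse primary somatosensory cortex (S1). All 4 genes were among the 17844 whose mean over the 7 libraries reached 0.1 FPKM (fragments per kilobase of model, scaled to the number of mapped fragments), and among the 11409 that the width rule of the study calls classifiable, since the widest 95% interval of each spanned no more than 50% of its mean FPKM (14.5% for Rora to 45.0% for Scnn1a). The tissue came from 8 untreated male C57BL/6J mice of 56 days, in 2 groups of 4 littermates. The 6 laminar segments were cut by eye under a microscope as A (mostly layers 1 to 3), B (mostly layer 4), C and D (upper and lower layer 5), E (mostly layer 6) and F (mostly layer 6b). Segment B was pooled by litter into libraries B1 and B2 (4 mice each), and each other segment gave 1 library from all 8 mice, so that only layer 4 was replicated (n = 2). Each segment held all cell types of its layer and some tissue of the adjacent layers. In such bulk samples fewer cells of a type and less RNA per cell cannot be told apart.

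Layer 4 is the main cortical target of thalamic sensory input, and in S1 its excitatory neurons form the whisker barrels. Rorb and Rora encode RORβ and RORα, retinoic acid receptor-related orphan receptors that bind DNA as monomers and regulate transcription, and RORβ has been tied to the identity and barrel clustering of layer 4 neurons. Scnn1a encodes the α subunit of the epithelial sodium channel ENaC, best known from kidney and lung epithelia, and its regulatory sequence drives widely used layer 4 Cre lines. Rspo1 encodes R-spondin 1, a secreted protein that binds Lgr receptors, keeps the ubiquitin ligases Znrf3 and Rnf43 from removing Frizzled receptors, and so raises the response of a cell to Wnt ligands.

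Library A was the shallowest, at an estimated 31.3 M fragments, and B2 the deepest, at 74.9 M, and genes of the mitochondrial genome took from 5.03% of the summed gene FPKM in F to 21.8% in A, with 7.76% in B1 and 18.2% in B2. Markers of the neighbouring layers were present in segment B. The 3 layer 2/3 markers summed to 270 FPKM in B1 and 290 in B2, near the 305 of A. Most of this sum was Lamp5 (219 FPKM in B1, 240 in B2 and 258 in A), whereas Otof had 0.868 FPKM in B1 and 0.975 in B2 against 7.09 in A. Rasgrf2 was higher in layer 4 than in A, with 49.7 FPKM in B1 and 49.3 in B2 against 39.9. How much of its level in B came from tissue of layers 2/3 was not tested. The 5 layer 5 markers summed to 25.6 FPKM in B1 and 23.1 in B2, against 69.0 in C, and the 3 layer 6b markers summed to 3.91 and 4.07 FPKM in B1 and B2, against 373 in F. The 4 meningeal markers were highest in A (summed FPKM of 26.0, against 3.67 to 6.27 elsewhere), and the 6 oligodendrocyte markers ranged from a summed 293 FPKM in A to 11801 in F. The part of these mixtures in the levels of the 4 genes was not tested.

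Rorb (ENSMUSG00000036192) lies on the minus strand of chr19:19005095-19185686 in the mm9 build used for the deposited tables. Its isoforms start at different first exons far apart in the gene. The sequences upstream of both starts are shown because the isoform values described further on turn on which start was used. They are the 250 bases before each RefSeq start in GRCm38.p6, written 5′ to 3′ on the strand of the gene, with CG dinucleotides in capitals.
Rorb distal start, chr19:19111197-19111446: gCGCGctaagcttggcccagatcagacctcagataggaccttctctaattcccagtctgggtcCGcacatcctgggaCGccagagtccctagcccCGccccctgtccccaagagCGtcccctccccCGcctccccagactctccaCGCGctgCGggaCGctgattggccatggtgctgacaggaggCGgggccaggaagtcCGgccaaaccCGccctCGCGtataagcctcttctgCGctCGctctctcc
Rorb proximal start, chr19:19001118-19001367: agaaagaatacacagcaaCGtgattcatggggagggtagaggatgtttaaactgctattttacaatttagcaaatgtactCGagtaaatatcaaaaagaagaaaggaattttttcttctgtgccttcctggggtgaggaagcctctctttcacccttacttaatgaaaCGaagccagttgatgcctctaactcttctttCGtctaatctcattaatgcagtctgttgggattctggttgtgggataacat
The window before the distal start held 18 CG dinucleotides at 66.0% GC, and the window before the proximal start held 4 at 39.2% GC. The median over the same window of 32851 mouse promoters was 6 CG dinucleotides and 52.4% GC.

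Rorb was detected at 17.8 FPKM in B1 and 22.1 in B2, 5.98 in A, and 12.6, 4.37, 2.23 and 2.27 in C, D, E and F. Its mean in layer 4 was 19.9 ± 3.05 FPKM (SD, n = 2). Both layer 4 libraries were the highest, upper layer 5 came next and layers 6 and 6b were lowest, and the 95% intervals of neighbours in this order overlapped only between F and E. The intervals of B1 (15.7 to 19.9) and B2 (21.8 to 22.4) lay above those of all 5 other segments. The study used nonoverlapping 95% intervals to find isoforms that differ between samples. It called layer enrichment of genes otherwise, by classifiers trained on in situ hybridization. By such intervals, here required of both B1 and B2, 114 of 17844 genes (0.639%) were above all 5 other segments. Rorb and Rspo1 were 2 of them. These intervals cover the estimate within a library and not the variation between mice.

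Expression of Rorb in layer 4 was 1.59-fold that in C, 3.34-fold that in A, 4.56-fold that in D, 8.94-fold that in E and 8.80-fold that in F. Layer 4 held 42.1% of the FPKM of Rorb summed over the 6 segments, and C held 26.6%. In the median gene layer 4 held 14.7%, and Rorb ranked 56 of 17844. On the log2(FPKM + 0.1) scale B exceeded the other segments by 2.14 (SE 0.63, limma, adjusted p = 0.999, unadjusted p = 0.00946).

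Rora (ENSMUSG00000032238) lies on the plus strand of chr9:68501593-69236053. Its level was 18.4 FPKM in B1 and 21.7 in B2, 9.43 in A, and 20.6, 11.5, 7.37 and 6.58 in C, D, E and F, with a layer 4 mean of 20.1 ± 2.32 FPKM (SD, n = 2). Layer 4 and upper layer 5 stood together at the top. The interval of C (19.6 to 21.6) overlapped that of B2 (20.8 to 22.6) and lay above that of B1 (17.5 to 19.4), so that layer 4 and upper layer 5 differed by less than the litters did.

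Both layer 4 libraries were above A, D, E and F by their intervals. The share of all tested genes that met this rule was 29.8% for A, 7.07% for D, 8.55% for E and 10.1% for F. Layer 4 had 2.13-fold the level of A, 1.75-fold that of D, 2.72-fold that of E and 3.05-fold that of F, and the ratio to C was 0.974. The spread from the highest to the lowest library was 3.30-fold for Rora and 9.91-fold for Rorb. Rora held 26.6% of its expression in B and 27.3% in C, and its share in B ranked 386 of 17844. The log2 difference between B and the other segments was 0.97 (SE 0.42, limma, adjusted p = 0.999, unadjusted p = 0.0513).

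Between the receptors, the FPKM of Rora over that of Rorb was 1.04 in B1 and 0.982 in B2, 1.58 in A, and 1.64, 2.63, 3.30 and 2.90 in C, D, E and F. Per length, the intervals of the 2 receptor genes overlapped in both layer 4 libraries, and Rora was the higher of the pair by nonoverlapping intervals in A, C, D, E and F. In A this call rests on the short isoform of Rora, described further on, which gave 4.91 of its 9.43 FPKM. The long isoform alone, at 4.53 FPKM in A (4.30 to 4.75), lay below Rorb (5.74 to 6.22). In C, D, E and F the long isoform alone lay above Rorb by its interval.

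**Figure D1:**
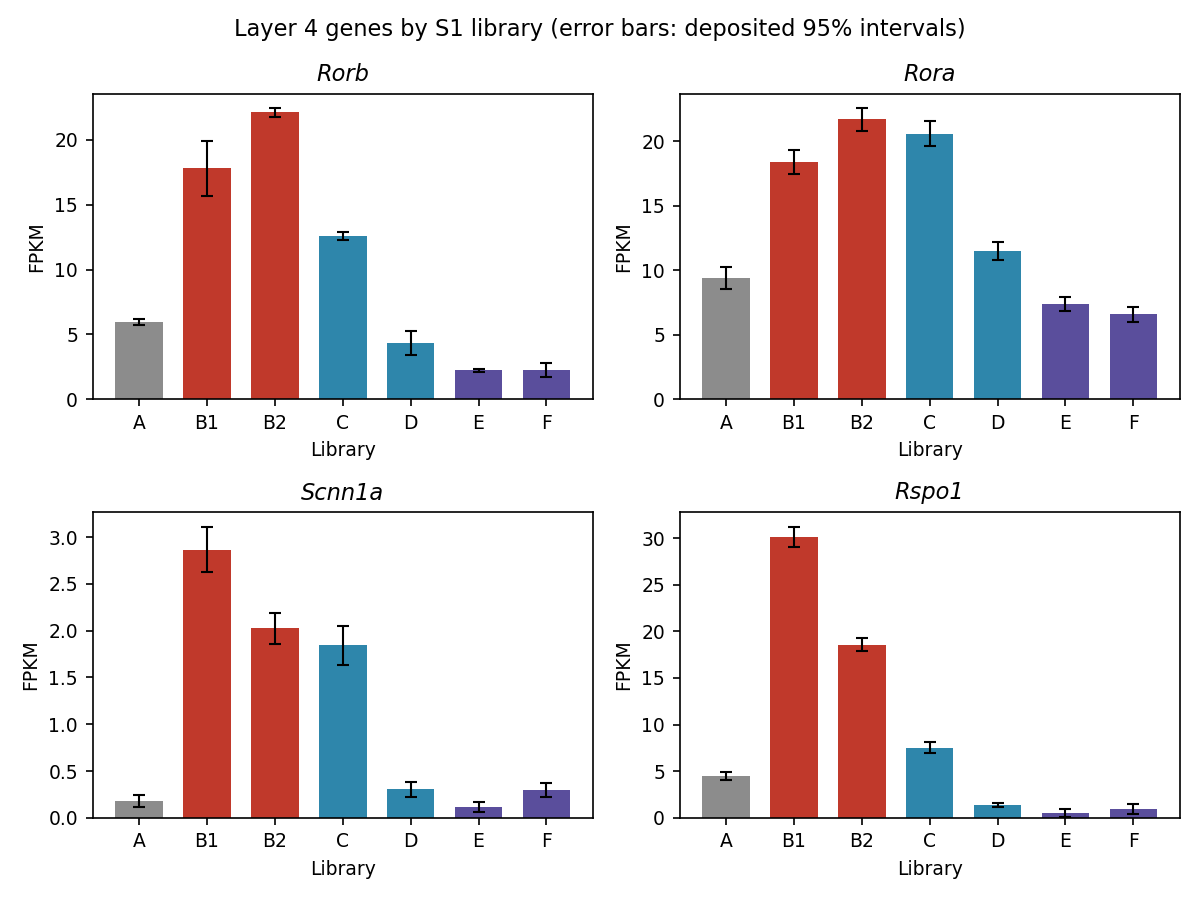
Bars give the FPKM of Rorb, Rora, Scnn1a and Rspo1 in each of the 7 S1 libraries, with the deposited 95% intervals as error bars, in grey for A, red for layer 4, blue for layer 5 and purple for layers 6 and 6b. B1 and B2 are the highest bars for Rorb, Scnn1a and Rspo1, and for Rora the bar of C (20.6 FPKM) stands between those of B1 (18.4) and B2 (21.7).

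Scnn1a (ENSMUSG00000030340, chr6:125271358-125294955) was the weakest of the 4 genes, with 2.87 FPKM in B1 and 2.02 in B2, 0.180 in A, and 1.84, 0.305, 0.117 and 0.297 in C, D, E and F. The mean in layer 4 was 2.45 ± 0.597 FPKM (SD, n = 2). Layer 4 and upper layer 5 were high and the other 4 segments low, with little in between. The values rest on an estimated 498 fragments in B1, 528 in B2 and 254 in C, and on 18 to 60 fragments in A, D, E and F. The intervals of neighbours in the order D, F, A and E overlapped, and those of D and F lay above that of E.

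B1 (2.62 to 3.11) lay above C (1.63 to 2.05) by its interval and B2 (1.86 to 2.19) did not. Of all tested genes, 5.23% were above C in both layer 4 libraries. Scnn1a in layer 4 was 1.33-fold the level of C, 8.02-fold that of D, 8.23-fold that of F, 13.6-fold that of A and 20.9-fold that of E. Layer 4 held 47.1% of its expression and upper layer 5 held 35.5%, the largest share of the 4 genes in C, and its share in B ranked 34 of 17844. The log2 difference was 2.47 (SE 0.77, limma, adjusted p = 0.999, unadjusted p = 0.0123).

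The flanks of layer 4 differed most for Scnn1a. The level in C, below layer 4, was 10.3-fold that in A, above it, against 2.18-fold for Rora, 2.10-fold for Rorb and 1.68-fold for Rspo1. On the log2(FPKM + 0.1) scale the difference of Scnn1a between C and A was 2.80, which ranked 111 of 17844, and the median gene stood at 0.27. The other ENaC subunits, which complete the channel in epithelia, were not expressed at a level that could be placed by layer. Scnn1b had no entry in B1, B2, C, D and F and at most 0.00904 FPKM elsewhere, and Scnn1g had 0.00749 FPKM in A to 0.0492 in C. Of the 6 listed regulators of the channel 4 were tested and none passed limma at an adjusted p of 0.05 (0 at an unadjusted p of 0.05 as well). Their shares in B were 17.7% for Furin, a protease that cleaves the α and γ subunits, 16.1% for Nr3c2, the mineralocorticoid receptor, 15.9% for the ubiquitin ligase Nedd4l and 10.1% for the kinase Sgk1, beside 14.7% for the median gene.

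Rspo1 (ENSMUSG00000028871, chr4:124663674-124686343) was the most layer 4-restricted of the 4 genes. It was measured at 30.1 FPKM in B1 and 18.6 in B2, 4.48 in A, and 7.54, 1.38, 0.533 and 0.936 in C, D, E and F, with a layer 4 mean of 24.4 ± 8.18 FPKM (SD, n = 2). The layer 4 libraries stood apart from all others, upper layer 5 and layers 1 to 3 were intermediate, and the intervals of D, F and E overlapped as neighbours at the low end. The levels in E and F rest on an estimated 33 and 61 fragments.

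Layer 4 was 3.23-fold higher than C, 5.43-fold higher than A, 17.7-fold higher than D, 45.6-fold higher than E and 26.0-fold higher than F. The lower of the layer 4 intervals (B2, 17.9 to 19.3) began at more than the 8.12 FPKM at which that of C ended. With 62.1% of its expression in B, Rspo1 ranked 14 of 17844 genes. The log2 difference was 3.55 (SE 0.91, limma, adjusted p = 0.999, unadjusted p = 0.00448). By FPKM alone B1 and B2 were both the highest of the 7 libraries for Rorb, Scnn1a and Rspo1, which held for 393 genes (2.2%).

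An antisense gene, Gm12930, overlaps the 5′ end of Rspo1. It had 0.975 FPKM in B1 and 0.568 in B2, 0.133 in A, and 0.342, 0.0553, 0.0576 and 0.0269 in C, D, E and F, with 55.6% in layer 4. Its order over B1, B2, C and A was that of Rspo1. The library protocol described for these samples does not mark the strand, so reads in the overlap cannot be assigned to either gene. Gm15511, inside the span of Rora, had at most 0.0363 FPKM. Ltbr and Tnfrsf1a, which flank Scnn1a, held 18.4% and 13.7% in B, and Trpm6, the neighbour of Rorb, held 30.2%, more than Rora, at no more than 0.207 FPKM.

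Rspo1 differed in its pattern from the other R-spondins, which act through the same receptors. Rspo2 had 0.870 FPKM in B1 and 1.18 in B2, 0.505 in A, and 3.73, 5.82, 7.90 and 8.80 in C, D, E and F, so that it was highest in E and F, where Rspo1 was lowest, and both layer 4 libraries lay below C, D, E and F by their intervals. Of all tested genes, 19.9%, 23.8%, 29% and 33.5% lay below C, D, E and F in this way, and 19.8% below A. Rspo3 was highest in A (9.53 FPKM) and had 2.59 to 4.08 FPKM elsewhere, and Rspo4 was below the limit of 0.1 FPKM on the mean, with at most 0.0756 FPKM. Rspo3 shared its peak in A with the 4 meningeal markers, whose part in it was not tested.

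Of the receptors for R-spondins, Lgr4 was measured at 1.93 FPKM in A and 4.24 to 5.06 FPKM in the other libraries. Lgr5 had 1.19 FPKM in C and 1.26 in D, against 0.229 in B1 and 0.158 in B2, and its interval in both layer 4 libraries lay below those of C, D and E. Lgr6 was at 1.18 FPKM in B1, 0.490 in B2 and 1.12 in D. The ligases Znrf3 and Rnf43 held 17.8% and 10.5% of their expression in B. In this list of 9 R-spondins and receptors 8 were tested, with a median share in B of 14.6%, near that of the median gene, and only Rspo1 had an unadjusted p under 0.05.

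Of 13 genes of Wnt signalling 12 were tested, with a median share in B of 15.0%. The highest shares were those of the receptor Fzd1 (24.96%), the co-receptor Lrp5 (24.5%) and the receptor Fzd3 (18.1%), and the lowest was that of the receptor Fzd7 (9.22%). The Wnt target Axin2 had 5.60 FPKM in B1 and 4.42 in B2, below A (10.2) and F (7.93) by the intervals of both. None of the 12 passed limma at an adjusted p of 0.05 or at an unadjusted p of 0.05.

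**Figure D2:**
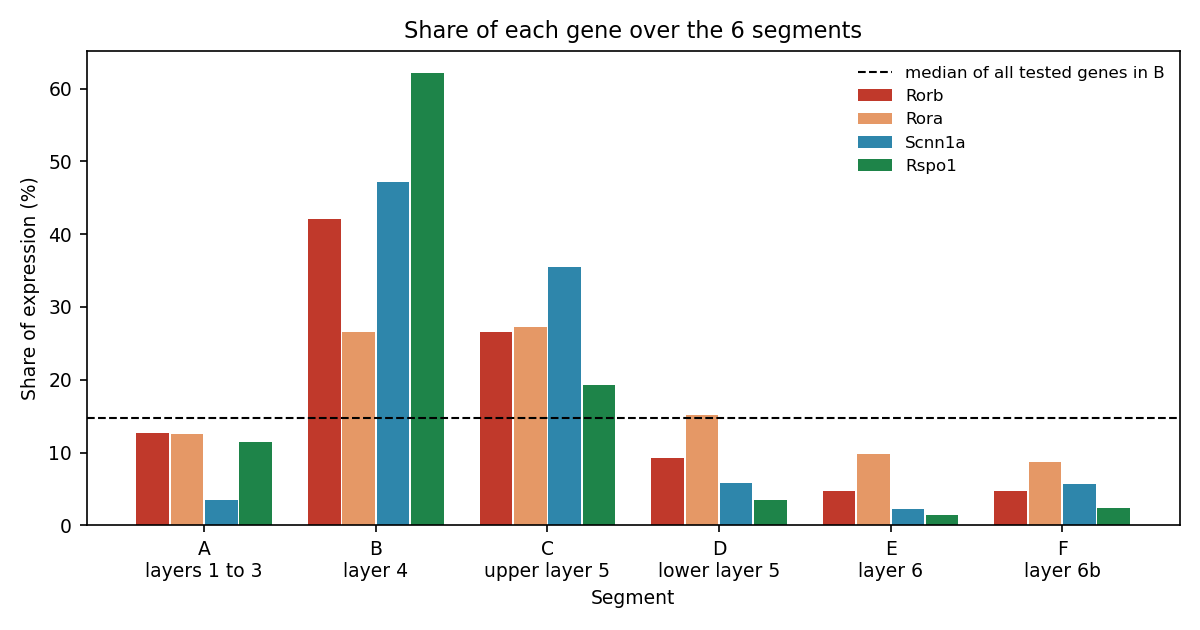
The share of each gene's FPKM, summed over the 6 segments, that falls in each segment (%), with layer 4 as the mean of B1 and B2 and the share of the median gene in B (14.7%) as the dashed line. The share in B runs from 26.6% for Rora to 62.1% for Rspo1, and the share in C from 19.2% for Rspo1 to 35.5% for Scnn1a.

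Across all genes limma found 0 of 17844 at an adjusted p of 0.05 (0% higher in layer 4) and 834 at an unadjusted p of 0.05, of which 195 (1.09%) were higher in layer 4, Rorb, Scnn1a and Rspo1 among them. The spread in this test comes mainly from the 5 different segments set against B, so a gene with a graded profile over those segments has a large error. The median of all genes lay at -0.14 on the log2 scale, below 0.

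The litters differed at all 4 genes by nonoverlapping intervals. Each litter was a single pool and library, so a difference between litters cannot be told apart from one of dissection or library preparation. Rorb and Rora were higher in B2, as were 25.3% of all genes, with log2 ratios of B2 to B1 of 0.31 and 0.24. Scnn1a and Rspo1 were higher in B1, as were 23.1% of all genes, with log2 ratios of -0.48 and -0.70. In size these ratios stood at percentiles 49.3 for Rorb, 38.9 for Rora, 67.5 for Scnn1a and 81.4 for Rspo1 of all tested genes, whose median absolute log2 ratio was 0.32.

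The GC content of the transcripts was 41.6% for Rorb and 40.9% for Rora, and 56.7% for Scnn1a and 59.7% for Rspo1. Over 16184 genes Spearman's correlation of this ratio with GC content was -0.49, a description across genes of 2 libraries. The genes in the same of 20 bins of GC content had a median log2 ratio of 0.31 around Rorb and Rora, -0.24 around Scnn1a and -0.39 around Rspo1. After the median of each bin was removed from each library, the ratios were -0.011 for Rorb, -0.088 for Rora, -0.25 for Scnn1a and -0.30 for Rspo1. The ratios of Rorb and Rora lay near the medians of their bins, so that values near 0 remained. The part of base composition in the difference between the litters was not tested. The shares in B hardly moved, with 43.5%, 28.7%, 47.2% and 61.6%.

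**Figure D3:**
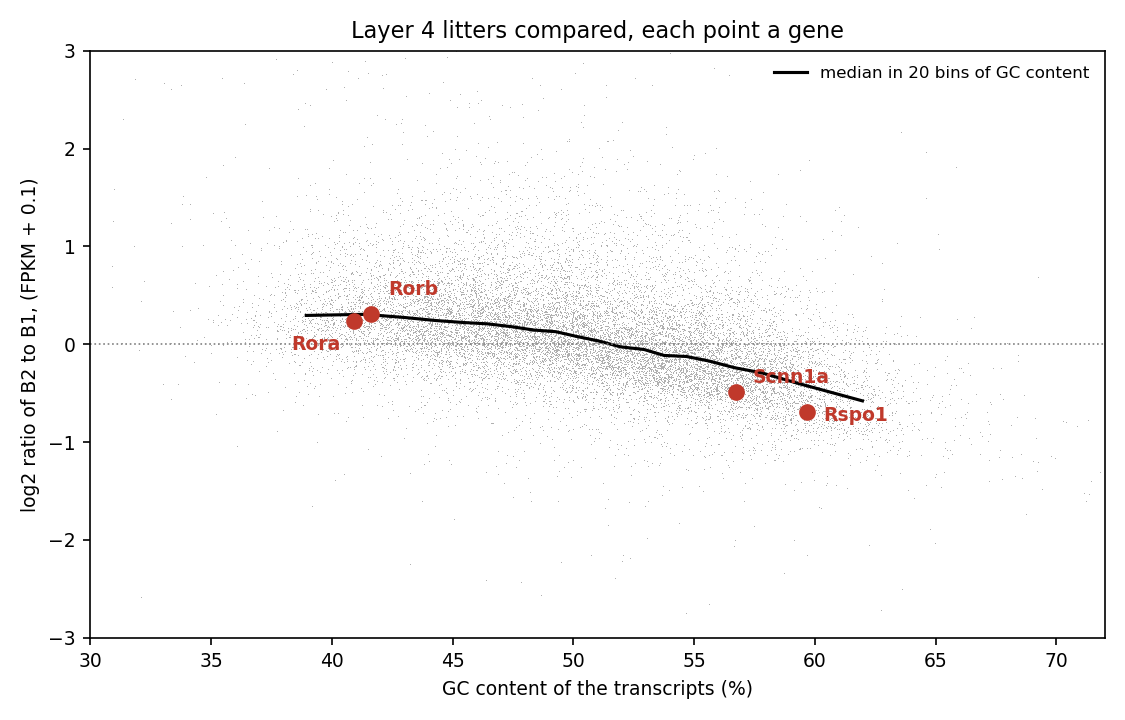
Each grey point is a gene, by the GC content of its transcripts (%) and its log2 ratio of B2 to B1 on the scale of FPKM + 0.1, the black line joins the medians of 20 bins, and red points are the 4 layer 4 genes. Rorb (0.31) lies on the line, and Scnn1a (-0.48) and Rspo1 (-0.70) lie below it at their GC content, within the cloud of other genes.

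Isoforms were resolved for Rora. Both listed isoforms share all but the start of their coding sequence, which is shown because it is what tells the 2 products apart. Each line gives the coding sequence of GENCODE M21 from its first codon, with the isoform-specific bases in lower case and the first 30 shared bases in capitals.
Rora long isoform ENSMUST00000034766: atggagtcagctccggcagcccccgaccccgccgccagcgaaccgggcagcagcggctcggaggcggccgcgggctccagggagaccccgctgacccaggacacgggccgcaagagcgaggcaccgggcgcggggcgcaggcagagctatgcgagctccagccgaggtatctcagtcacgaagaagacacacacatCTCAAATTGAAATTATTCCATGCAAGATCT
Rora short isoform ENSMUST00000113624: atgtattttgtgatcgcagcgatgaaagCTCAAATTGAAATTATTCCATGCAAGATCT
The isoform-specific part is 196 bases in the long isoform (523 codons, transcript of 10878 nt) and 28 bases in the short isoform (467 codons, transcript of 2591 nt), ahead of 1376 shared coding bases. The shared part encodes the DNA-binding and ligand-binding domains.

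The long isoform of Rora had 13.2 FPKM in B1 and 16.1 in B2, 4.53 in A, and 15.6, 9.33, 5.79 and 4.28 in C, D, E and F. The short isoform had 5.20 FPKM in B1 and 5.63 in B2, 4.91 in A, and 5.01, 2.17, 1.57 and 2.31 in C, D, E and F. Both isoforms were higher in B1, B2 and C than in D, E and F by nonoverlapping intervals. Only the long isoform was also higher there than in A, while the short isoform was level from A to C, with overlapping intervals. The share of all isoforms that met such rules was not counted. Of all tested genes, 7.07%, 8.55% and 10.1% were above D, E and F in both layer 4 libraries. The short isoform made up 28.2% of the isoform FPKM in B1 and 25.9% in B2, 52.0% in A, and 24.3%, 18.8%, 21.4% and 35.0% in C, D, E and F.

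Between A and D the isoforms differed in opposite directions by nonoverlapping intervals, the short one higher in A and the long one higher in D, and the same held between A and E. This criterion was met by 36.2% of 5695 genes with at least 2 isoforms between A and D and by 36.3% between A and E. Between the 2 layer 4 litters it was met by 33.5%, among them Rorb but not Rora. Unlisted isoforms were taken as 0 throughout. The call for Rorb rests on its proximal-start isoform, unlisted in B2. In the de novo models of the study, the 3′ model of Rora (1 exon of 6801 nt, chr9:69229239-69236039) had 0.244 times the FPKM of the model just upstream of it (5 exons, chr9:69220896-69229171) in A, against 0.640 in B1 and 0.671 in B2, and 0.762, 0.761, 0.746 and 0.650 in C, D, E and F. The models themselves differed between the litters more than the gene did, with 6.00 FPKM in B1 and 23.3 in B2 for the upstream model and 3.84 and 15.6 for the 3′ model, against 18.4 and 21.7 for the gene. In B1, 4 de novo models overlapped the span of the upstream model and 5 that of the 3′ model, against 1 and 1 in B2. When all overlapping models were summed, an alternative chosen after seeing the data, the ratio was 0.509 in A, 1.13 in B1, 0.671 in B2 and 0.735 to 1.13 in C to F. The sums took every model in a span without regard to strand or exons. A model that reached into both spans would count in both sums. Library A had the lowest ratio at Rora either way, and it had the highest share of the short isoform. The part of these model values in the isoform values was not tested.

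**Figure D4:**
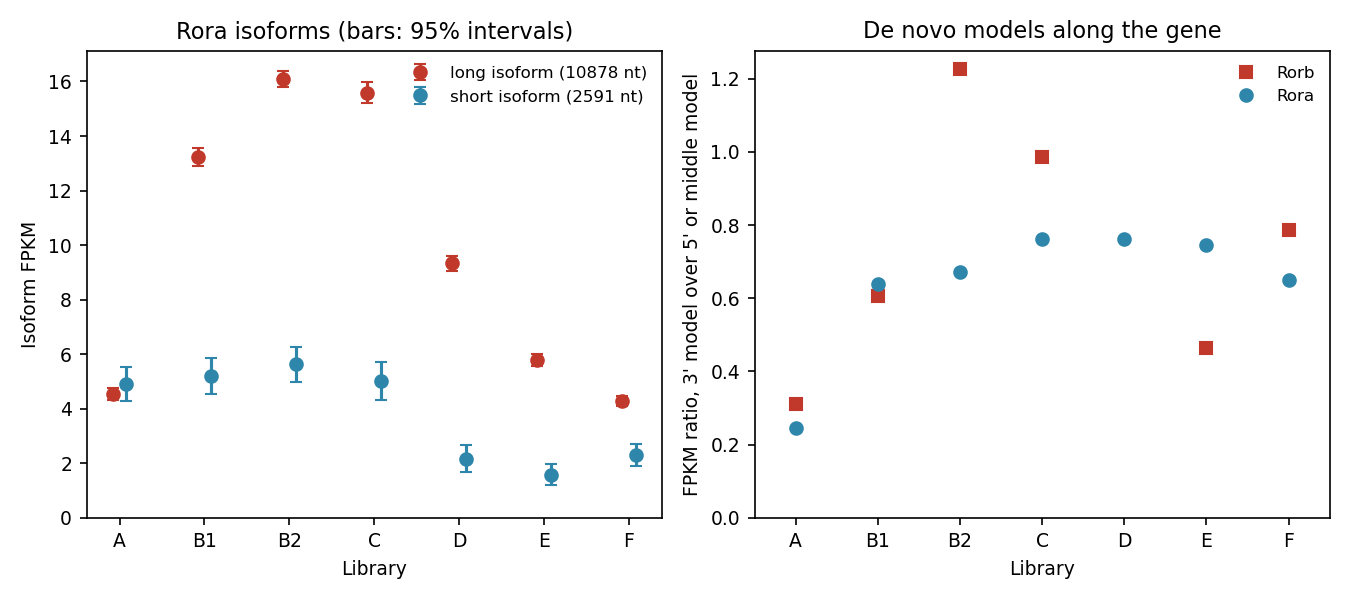
Left, FPKM of the long and short isoforms of Rora in each library with 95% intervals. Right, within each library, the FPKM of the 3′ de novo model over that of the 5′ model (Rorb, not available in D) or middle model (Rora). The long isoform is at 13.2 to 16.1 FPKM in B1, B2 and C, and both ratios of these single models are lowest in A (0.311 for Rorb and 0.244 for Rora). With all overlapping models summed, not shown here, A stays the lowest for Rora, and for Rorb A is close to F, the lowest. Those sums take every model in a span without regard to strand or exons.

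Rorb was carried by the isoform from the distal start. These are the starts of the 2 coding sequences, in the same notation.
Rorb distal-start isoform ENSMUST00000112832: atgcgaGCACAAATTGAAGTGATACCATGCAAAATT
Rorb proximal-start isoform ENSMUST00000040153: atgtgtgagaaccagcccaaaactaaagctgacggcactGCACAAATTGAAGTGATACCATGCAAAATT
They differ by 6 isoform-specific bases (459 codons in all) against 39 (470 codons), ahead of 1374 shared bases. The capitals lead into the DNA-binding domain in both genes.

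The distal-start isoform had 15.95 FPKM in B1 and 22.1 in B2, 5.98 in A, and 12.6, 3.97, 2.23 and 2.08 in C, D, E and F. The proximal-start isoform was listed only in B1 (1.84 FPKM, 95% interval 0.334 to 3.35), D (0.403) and F (0.190), at 8.37% to 10.3% of the isoform FPKM. The tables list no isoform under 5.00% of the main transcript at its locus, and in B2 an unlisted isoform could have up to 1.11 FPKM, which is within the interval of B1. A difference of the proximal-start isoform between the litters was therefore not detectable. The 3′ de novo model of Rorb (1 exon, chr19:19004918-19011200) had 0.605 times the FPKM of the 5′ model (5 exons, chr19:19036515-19185691) in B1 and 1.23 in B2, and 0.311 in A, 0.986 in C, 0.464 in E and 0.787 in F. The 5′ model was itself highest in A, with 16.1 FPKM (95% interval 15.2 to 17.0) against 12.0 in B1 (11.1 to 12.9) and 12.4 in B2 (11.4 to 13.4), which is not the order of the gene FPKM. The 3′ model had 5.01 FPKM in A, 7.24 in B1 and 15.2 in B2. When all models overlapping the 5′ span were summed, as was done for Rora, A was no longer the highest. The sum took every model in these coordinates, without regard to strand or exons. It is therefore not a level of the 5′ exons of Rorb. That sum was 36.6 FPKM in A (8 models), 36.5 in B1 (13 models) and 76.8 in B2 (20 models). In F that sum was 19.7 FPKM (36 models), where the gene had 2.27 FPKM. Models over the 3′ span summed to 2.48 FPKM in F, against 5.01 in A. The ratio of these sums was lowest in F, not A, and does not compare the 3′ with the 5′ exons of Rorb. The part of these model values in the levels of Rorb was not tested.

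Scnn1a had 1 isoform, ENSMUST00000081440, in all 7 libraries, so that its isoform and gene FPKM were the same. Rspo1 was represented by ENSMUST00000030687 in A to D and by this and a short isoform, ENSMUST00000140698 (446 nt), in E and F. The short isoform had 0.144 FPKM in E and 0.397 in F, on an estimated 3 and 9 fragments, and in B1 an unlisted isoform could have up to 1.51 FPKM, so its absence from the layer 4 tables does not place it by layer.

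The RefSeq windows of Rora (chr9:68653536-68653785) and Rspo1 (chr4:124986180-124986429) held 26 and 22 CG dinucleotides at 61.2% and 66.8% GC. The ROR core motif AGGTCA, searched on both strands, did not occur in these windows or in those of the 2 Rorb starts, and 14.0% of 32851 promoters held it. The longer form TAGGTCA, which contains it, was in 2.23% of promoters. No match says only that these letters are not in the 250 bases.

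The 10 clock genes that ROR proteins are known to regulate or act with, among them Arntl, Clock and the Nr1d genes, had shares in B from 15.5% (Clock) to 21.2% (Nr1d1, which encodes the repressor REV-ERBα), with a median of 19.1%. The next highest were the circadian genes Per1 (20.5%) and Cry1 (19.6%), beside 14.7% for the median gene. The shares of Nr1d1 and Per1 came mainly from B1. Nr1d1 had 53.2 FPKM in B1 and 33.7 in B2, against 45.5 in C. Per1 had 16.3 FPKM in B1 and 7.65 in B2, the lowest of all libraries. Arntl, a ROR target, was at 9.48 FPKM in B1 and 9.01 in B2, within the 8.47 to 11.2 FPKM of C to F, and at 4.69 in A. None of the 10 passed limma at an adjusted or at an unadjusted p of 0.05.

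The genes whose profile over the 7 libraries was most like that of each marker were taken from 10144 classifiable genes whose mean FPKM was 1 or more, by Pearson's r of log2(FPKM + 0.1). These values describe 7 libraries that share a dissection series, and r compares the shape of a profile and not its range. For Rorb they were Igtp, an interferon-inducible GTPase (r = 0.984), Zbtb46 (0.971), Coch (0.970), Cntnap5b (0.970) and Rspo1 itself (0.969). For Rora they were Nrsn1 (0.988), Nrep (0.987), Dcdc2a (0.984), Gfpt2 (0.979) and Coch (0.976). Nrsn1 had 287 FPKM in B1, 329 in B2 and 280 in C, against 110 to 188 in A, D, E and F, which is the plateau over layer 4 and upper layer 5 seen for Rora.

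For Scnn1a the list was the calcium channel gene Orai3 (0.982), Zbtb46 (0.972), the adenylyl cyclase gene Adcy8 (0.967), the laminin gene Lama4 (0.966) and B930095G15Rik (0.962). Orai3 ran only from 6.72 FPKM in E to 10.8 in B1, a narrower range in fold than that of Scnn1a. The same held for the others of this list. Zbtb46, also on the list of Rorb, ran from 1.74 FPKM in E to 2.75 in B2, and B930095G15Rik from 11.1 in D to 14.5 in C. For Rspo1 the list was Tspan11 (0.983), Ptpn21 (0.973), Rorb (0.969), Igtp (0.966) and the semaphorin receptor gene Plxnd1 (0.964). Tspan11, a tetraspanin gene, came nearest in range too, with 6.76 FPKM in B1, 4.84 in B2, 2.34 in A, 2.63 in C, and 0.0872 to 0.445 in D, E and F, and 50.2% of its expression in B. Among themselves the 4 markers had r from 0.873 (Rora and Rspo1) to 0.969 (Rorb and Rspo1).

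Of 8 other genes known from layer 4, the median share in B was 30.0%, beside 14.7% for the median gene. None passed limma at an adjusted p of 0.05, and 4 had an unadjusted p under 0.05, as had 4.67% of all tested genes in either direction. The potassium channel gene Kcnh5 held 42.0% in B, the transcription factor gene Cux2 39.3% and the netrin receptor gene Unc5d 37.6%, all below Scnn1a and Rspo1, and Hsd11b1 had the lowest share, 17.6%. Kcnh5 and Unc5d were above all 5 other segments by intervals, as were Rorb, Rspo1 and the layer 2/3 marker Rasgrf2. Cux2 was as high in A (37.9 FPKM) as in layer 4 (43.5 in B1 and 28.6 in B2), which none of the 4 markers was. In C, Kcnh5 held 27.4% and Cux2 10.0%, beside 26.6% for Rorb and 35.5% for Scnn1a.

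Layer 2/3 markers came next with a median share in B of 28.3%, from 10.9% for Otof to 36.9% for Rasgrf2, with Lamp5 between at 28.3%. Layer 5 markers had a median of 10.7%. Their highest shares were Tmem200a (24.6%), Rbp4 (11.2%) and Etv1 (10.7%), and the lowest was Bcl11b (5.71%). Fezf2, which defines subcortical projection neurons of layer 5, had 6.06 FPKM in B1 and 3.86 in B2, against 26.0 in C. Layer 6 markers had a median of 2.47%, from Foxp2 (0.854%) through Syt6 (1.21%) and Ntsr1 (3.74%) to Tbr1 (13.1%), and layer 6b markers a median of 0.347%, with Nxph4 at 0.114%, Ctgf at 0.347% and Cplx3 at 1.52%.

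Markers of other cell types were spread otherwise than the 4 layer 4 genes. The interneuron list had a median share in B of 16.4% (Vip 21.9%, Pvalb 19.2%, Lhx6 16.6% and lowest Sst 12.3%), the astrocyte list 17.0% (Aldh1l1 20.001%, Slc1a2 19.1%, Slc1a3 18.2% and lowest Gfap 2.64%) and the endothelium list 18.3% (Flt1 19.5%, Pecam1 18.6%, Cldn5 17.9% and lowest Slco1a4 16.4%). The oligodendrocyte list had a median of 3.98% (Mag 5.15%, Mog 4.77% and lowest Mobp 3.13%), the microglia list 11.6% (Cx3cr1 12.97%, Aif1 12.3%, Csf1r 10.9% and lowest Itgam 10.7%) and the meninges list 9.08% (Dcn 10.7%, Igf2 9.25%, Ogn 8.91% and lowest Col1a1 8.03%). No gene of these 6 lists reached the share of Rora.

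**Figure D5:**
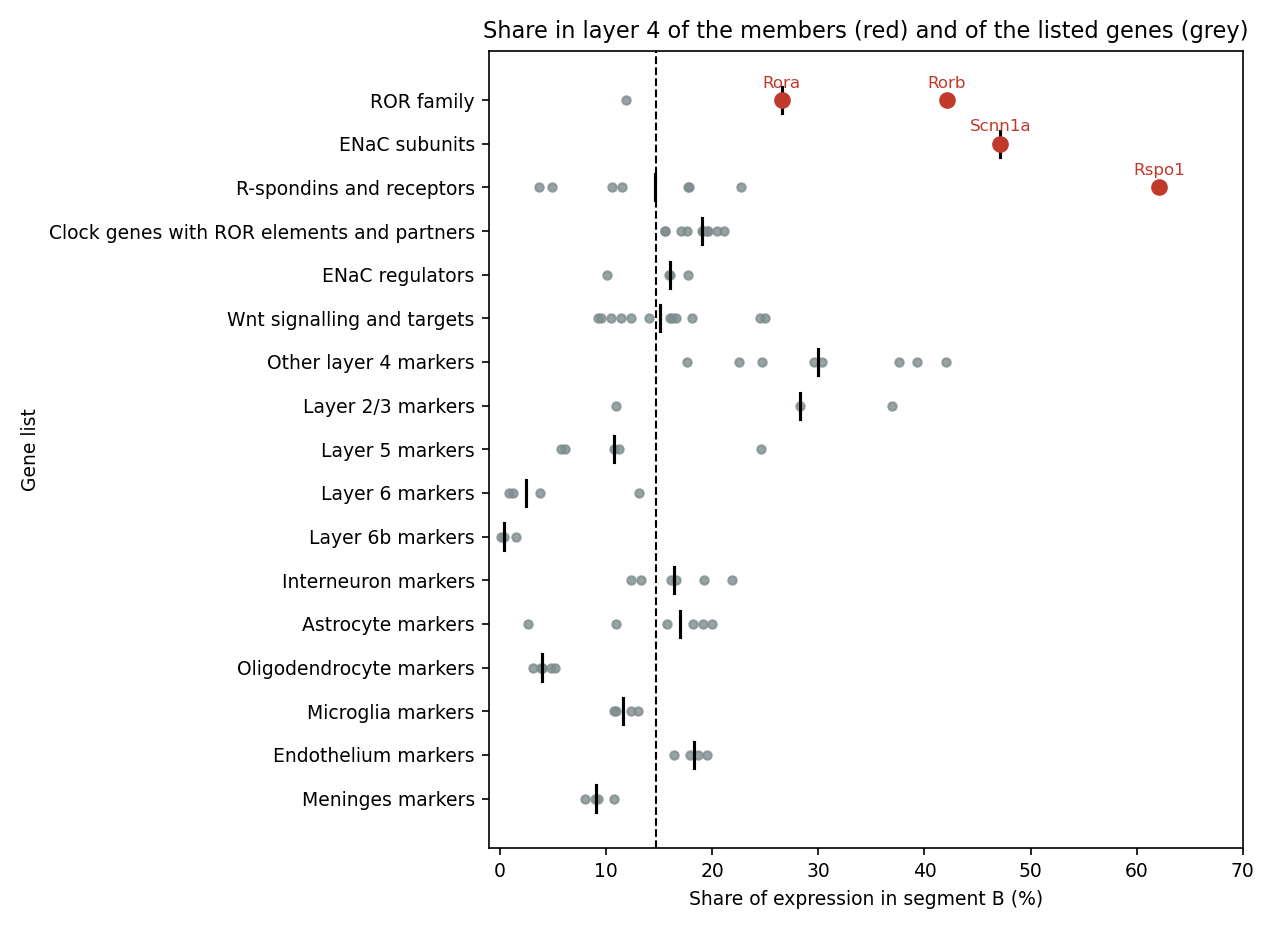
Each point is a tested gene of the named list, placed by its share of expression in segment B (%), with the members Rorb, Rora, Scnn1a and Rspo1 in red, list medians as black ticks and the median of all tested genes (14.7%) as the dashed line. Rspo1 (62.1%) lies farthest to the right, and the layer 5, layer 6 and oligodendrocyte lists have medians of 10.7%, 2.47% and 3.98%, to the left of the line.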

How the data were processed

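PolyA RNA of 6 laminar segments of mouse S1 was sequenced from both fragment ends by the study, in 7 libraries. A further 12 samples, from dorsal and lateral areas, were not used here. Per the submitters' processing notes, reads were mapped to mm9 with TopHat 1.0.13 and assembled and quantified with Cufflinks 0.8.3 on Ensembl release 57 and on de novo models. The FPKM that the authors deposited for genes and transcripts are scaled for length and mapped fragments and carry a 95% interval. The fraction values that the authors deposited give the abundance of a transcript relative to its locus, and no listed value lies under 5.00% of the main transcript. The coverage (signal) that the authors deposited is read coverage per transcript, from which depth and fragments were estimated with 2 ends of 50 nt. For F, where some reads were longer, this is an upper value. The score that the authors deposited with de novo models was not used for any value. Genes without an entry were set to 0 and genes listed at several places were summed.

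Symbols were taken by identifier from GENCODE M21 (22021 of 24130 genes), promoters from RefSeq on GRCm38.p6 (3 of the 4 genes matched), and mm9 positions from the tables. B1 and B2 were compared with the 5 other segments by limma 3.58.1 (R 4.3.3) on log2(FPKM + 0.1) with trend, over 17844 genes with Benjamini-Hochberg adjustment and 5 residual degrees of freedom. The single libraries share 1 arm, so its spread is that between layers. Other comparisons used nonoverlapping intervals, with no test, since each other segment had 1 library. The intervals cover the estimate within a library, and neither they nor the fragment estimates cover variation between mice. On simulated data this design recovered 8% of genes raised 2-fold in layer 4, 62% of those raised 4-fold, 88% of those raised 16-fold and 94% of those raised 64-fold. The simulated spread was drawn independently for each gene and library, without profiles that run across neighbouring layers. These rates are therefore not the power for genes graded over the layers. In the real data the lowest adjusted p of any gene by limma was 0.131. The GC correction removed each library's median log2 deviation in 20 bins. Alternatives varied the pseudocount (0.01 and 1), filter, scaling, interval width and libraries.

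The members, gene lists and tests were chosen with earlier results of these data known. Named genes are the 4 members, the 5 genes most like each, every gene of the ROR, ENaC and R-spondin lists, and of other lists the 3 highest and the lowest by share in B. Of these, 2 genes are not reported here. Gm12930, the other neighbours of the 4 genes, Axin2, Arntl and Fezf2 were named outside this rule or after their values were seen.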

Additional observations from a re-analysis of the deposited data

How the results depend on the processing

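No paired analysis was possible because only segment B has numbered replicates. Over 16 alternatives of the comparison of layer 4 with the other segments, each of the 4 genes stayed higher in layer 4 and none passed an adjusted p of 0.05 by limma. The log2 difference ran from 1.90 to 2.51 for Rorb, 0.81 to 1.22 for Rora, 1.24 to 3.00 for Scnn1a and 2.95 to 4.03 for Rspo1, and the lowest adjusted p was 0.142, 0.262, 0.175 and 0.106. The count of genes passing, 0 as reported, was 2 with a pseudocount of 0.01, 2 without a filter, 64 without segment A (20 higher and 44 lower in layer 4), 1 without D, 2 without F, and 6 to 11 with 1 layer 4 library left out, when the remaining one is assumed to vary like the other segments. The 4 markers were not among them, and the cause was not tested. Rescaling by the median of ratios moved the median of all genes from -0.14 to 0.00080, and rescaling without mitochondrial genes moved it to 0.012. The share in B without B1 or B2 was 39.3% to 44.6% for Rorb, 24.9% to 28.1% for Rora, 42.5% to 51.1% for Scnn1a and 55.5% to 67.0% for Rspo1. Without B2, Scnn1a in layer 4 was above 5 segments by intervals in place of 4. GC correction, chosen after seeing the data, brought the log2 ratio of B2 to B1 to -0.011 for Rorb and -0.088 for Rora and that of Rspo1 to -0.30. The other alternatives kept the direction of these values. Depth limits Scnn1a and Rspo1 most, with an estimated 18 and 33 fragments in E, and no value but those of B1 and B2 carries variation between mice.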
